A study of Mus musculus with 8 samples.

Results

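The aminoacyl-tRNA synthetases, the enzymes that charge tRNA, were chosen by gene name, as every non-control probe whose name in the array files was that of an aminoacyl-tRNA synthetase. This gave 61 of 41174 probes, for 30 of 27573 genes. Matched to RefSeq, 29 of the 30 are synthetase genes, of which 18 are cytosolic, 2 serve both compartments and 9 are mitochondrial. The other is Dtd1, which encodes a deacylase that frees tRNA from D-amino acids; its probe carries the name Hars2 in the files. The probes named Vars2 in the files are those of the cytosolic valyl enzyme Vars. A further 14 probes of 9 synthetase genes stand in the files under other names, and they are given beside the 29 as Aars2, Cars2, Ears2, Hars2, Pars2, Rars2, Tars2, Tarsl2 and Vars2. With them all 17 purely mitochondrial enzymes were measured. Of the 61 probes, 57 passed the filter on dim signal, and all 38 synthetase genes kept at least 1 probe.

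Aminoacyl-tRNA synthetases join each amino acid to its tRNA, the step that supplies the ribosome with its building blocks. In mammals most amino acids have 1 nuclear gene for the cytosolic enzyme and another for the mitochondrial enzyme, while the glycyl and lysyl enzymes of both compartments come from the single genes Gars and Kars. Several cytosolic enzymes sit together in a multi-synthetase complex held by scaffold proteins, and several cytosolic synthetase genes are known targets of the transcription factor ATF4, which acts when amino acids run short. mTOR, the kinase that rapamycin inhibits, raises protein synthesis and is one of the pathways that act on ATF4.

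RNA from salivary gland tissue of mice was measured on 8 arrays with 1 colour. The tumours were induced by AKT, a kinase upstream of mTOR; the labels used here give no promoter, strain, sex or age, and leave unsaid if replicate arrays hold RNA of different animals. Tumours were taken untreated (2 arrays), on day 3 of rapamycin (1 array) and on day 14 of rapamycin (2 arrays). Normal glands, also untreated, were the parotid gland (2 arrays) and the submandibular gland (1 array). Each value below is a log2 signal relative to the 75th percentile of its own array, and a difference is on the log2 scale with its standard error from limma, fitted over 16362 genes and all 8 arrays. P-values were adjusted by Benjamini and Hochberg's method across these genes, and the threshold was 0.05. They measure only the spread between these samples, which at day 14 may be technical. The comparisons share arrays with each other.

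The arrays differed in more than their labels. The 75th-percentile signal was 966 and 972 in untreated tumour, 730 at day 3, 177 and 236 at day 14, 384 and 145 in parotid gland and 277 in submandibular gland. Summed signal of 9 salivary acinar markers was 67.4 to 106 in untreated tumour, 87.9 at day 3, 4055 to 4145 at day 14, 3195 to 6897 in parotid gland and 1849 in submandibular gland, in units of the 75th percentile. Skeletal muscle markers summed to 0.781 and 1.36 in untreated tumour, 1.71 at day 3, 721 and 841 at day 14, 0.385 and 82.1 in parotid gland and 0.990 in submandibular gland. Markers of dividing cells summed to 83.2 and 87.6 in untreated tumour, 59.5 at day 3, 4.74 and 4.77 at day 14, 6.48 and 2.56 in parotid gland and 2.07 in submandibular gland. All 9 acinar and all 7 muscle markers were well above background on both day 14 arrays, against 5 and 8 acinar and 3 and 3 muscle markers on the untreated tumours. Of the 7 division markers, 2 and 4 were at day 14, against 7 and 7 in untreated tumour. Plasma and B cell markers summed to 0.282 and 0.152 in untreated tumour and 72.6 and 79.5 at day 14. T cell markers summed to 0.239 and 0.257 in untreated tumour, 10.2 and 13.1 at day 14 and 58.0 and 1.27 in parotid gland. Fat markers summed to 22.9 and 13.0 in untreated tumour, 92.4 at day 3 and 282 and 249 at day 14. Macrophage markers ran the other way, at 9.41 and 13.3 in untreated tumour and 5.28 and 7.34 at day 14. Thus both day 14 arrays carried gland, muscle, lymphocyte and fat transcripts and few division transcripts. The part of tissue makeup in the results below was not tested. In whole tissue, fewer cells of a type and less RNA per cell cannot be told apart. Xist and 3 Y-linked genes were both above background on the day 14 arrays, whereas each other array had only 1 of these signals. Untreated tumour replicate 1 and parotid replicate 2 had the Y-linked signal, and untreated tumour replicate 2 and parotid replicate 1 had Xist. The replicates of untreated tumour and of parotid gland thus came from animals of different sex.

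Promoter windows were searched for the composite element of C/EBP and ATF factors, because ATF4 is known to act on several cytosolic synthetase genes through it. The search used TGATGNAA on both strands, in the RefSeq windows of build GRCm38.p6 that run from 250 bases before each gene's start to 50 bases after it. Of 27025 genes with a window, 4.51% held the element. Of the 29 synthetases 21 had a window, and 5 of these (23.8%) held it, namely Aars with 2 copies, Gars, Iars, Tars and Yars, the tyrosyl enzyme. None of the 14 mitochondrial enzymes with a window did. With the window shortened to the last 100 bases before the start and the 50 after it, the same 5 synthetases held it, and 2.36% of all genes. The stretches below show these 5, from 130 bases before the start to 20 bases from it, 5′ to 3′ on the gene's strand, with the element in capitals; the coordinates are chr8:111033712-111033861 (+) for Aars, chr6:55037871-55038020 (+) for Gars, chr13:49682000-49682149 (+) for Iars, chr15:11399639-11399788 (−) for Tars and chr4:129189773-129189922 (+) for Yars.
Aars: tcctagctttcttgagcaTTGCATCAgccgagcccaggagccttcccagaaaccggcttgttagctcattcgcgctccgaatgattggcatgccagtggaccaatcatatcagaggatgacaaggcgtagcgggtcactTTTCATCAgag
Gars: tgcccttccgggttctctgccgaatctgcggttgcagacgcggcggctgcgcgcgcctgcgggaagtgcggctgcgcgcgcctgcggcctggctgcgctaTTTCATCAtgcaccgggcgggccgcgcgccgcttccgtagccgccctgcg
Iars: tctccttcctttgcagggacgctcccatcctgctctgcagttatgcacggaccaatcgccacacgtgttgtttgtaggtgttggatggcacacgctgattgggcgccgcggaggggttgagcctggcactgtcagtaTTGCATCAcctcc
Tars: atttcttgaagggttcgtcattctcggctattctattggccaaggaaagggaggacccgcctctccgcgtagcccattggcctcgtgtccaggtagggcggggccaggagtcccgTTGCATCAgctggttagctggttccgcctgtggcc
Yars: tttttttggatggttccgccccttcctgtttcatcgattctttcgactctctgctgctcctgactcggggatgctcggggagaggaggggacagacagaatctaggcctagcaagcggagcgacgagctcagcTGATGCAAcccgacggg

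The enzymes were then described by how their class moved over the arrays. For each gene its level on an array was set against its own mean over the 8 arrays, and the median was taken over the genes of a class. For the 17 mitochondrial enzymes this median was 0.51 and 0.62 in untreated tumour, 0.18 at day 3, −0.55 and −0.32 at day 14, −0.22 and −0.04 in parotid gland and −0.17 in submandibular gland. The mitochondrial class therefore stood above its mean on all 3 arrays of untreated and day 3 tumour and below it on the other 5. For the 18 cytosolic enzymes it was 0.04 and 0.21 in untreated tumour, −0.13 at day 3, −0.44 and −0.40 at day 14, −0.11 and 0.69 in parotid gland and 0.20 in submandibular gland. The cytosolic class was lowest on the day 14 arrays and highest on parotid replicate 2, and the parotid arrays lay further apart than the untreated tumours lay from either. Over all genes the median stayed between −0.06 and 0.05 on every array.

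**Figure D1:**
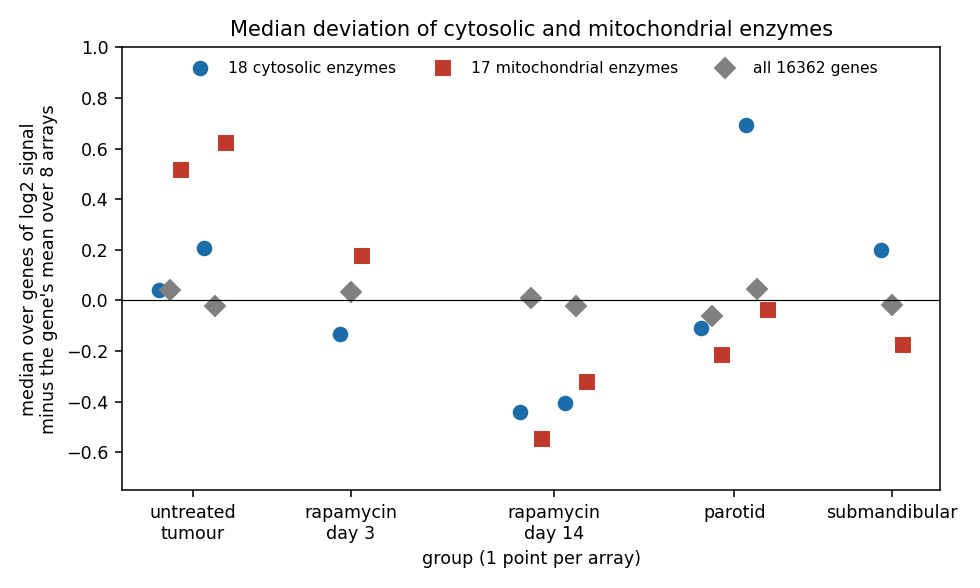
Median deviation of the 18 cytosolic enzymes (blue circles), the 17 mitochondrial enzymes (red squares) and all 16362 genes (grey diamonds) on each array, as log2 signal minus the gene's own mean over the 8 arrays (y axis), with 1 point per array in each group (x axis). The mitochondrial medians of 0.51 and 0.62 in untreated tumour lie above those of every gland array, while the cytosolic medians of parotid gland, −0.11 and 0.69, lie on either side of those of untreated tumour.

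Untreated tumour was compared with parotid gland to see which enzymes the tumour held at another level than the gland. Among the 29 synthetases, 2 mitochondrial enzymes were higher in tumour, among them Yars2, which charges mitochondrial tRNA with tyrosine, and Lars2, the mitochondrial leucyl enzyme, was lower. None of the 18 cytosolic enzymes passed limma's test, although 6 of them had an unadjusted p under 0.05. Over all genes the share under that unadjusted threshold is at least the 39.0% that passed after adjustment. The 3 calls of 29 compare with 39.0% of all genes called. In the direction of the rise, 2 of 29 stand beside 18.7% of all genes, and in that of the fall, 1 of 29 beside 20.3%.

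Vars2, the mitochondrial valyl enzyme, is among the 9 genes under other names and was also higher in tumour. It was at 0.90 and 1.55 in untreated tumour, 0.84 at day 3, −0.14 and 0.21 at day 14, −0.58 and −0.66 in parotid gland and −0.64 in submandibular gland. The 3 gland arrays lay within 0.1 of each other on the log2 scale and below all tumour arrays. The difference from parotid gland was 1.85 ± 0.30 with an adjusted p of 0.00531, and that from submandibular gland was 1.86 ± 0.37 with an adjusted p of 0.0136. A second Vars2 probe gave 2.02 against parotid gland.

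Yars2 was at 1.57 and 1.42 in untreated tumour, 0.97 at day 3, 0.29 and −0.09 at day 14, 0.62 and 0.76 in parotid gland and 0.84 in submandibular gland. Its difference from parotid gland was 0.80 ± 0.24, with an adjusted p of 0.0394. The groups did not overlap, but the call was lost under 5 of the 14 settings that did not leave out a single replicate, and without either untreated tumour or either day 14 array. Pars2 (1.15 ± 0.37, adjusted p = 0.0506) and Sars2 (0.86 ± 0.28, adjusted p = 0.0538), the mitochondrial prolyl and seryl enzymes, missed the threshold.

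Over the 17 mitochondrial enzymes the median difference between untreated tumour and parotid gland was 0.68, against 0.02 over all genes. It was positive in 14 of the 17, and the exceptions were Lars2, Cars2 and Wars2. Under the other settings this median ranged between 0.42 and 0.85. Over the 18 cytosolic enzymes the median was −0.30, but it was −0.05 after quantile normalization, 0.04 with the mean of a gene's probes, 0.14 within slide 1 and 0.14 without parotid replicate 2. The cytosolic differences spanned −0.95 for Sars, the seryl enzyme, and 0.94 for Vars, so that no common direction was seen. Gars and Kars differed by 0.74 ± 0.38 and 0.45 ± 0.30, neither past the threshold (adjusted p = 0.169 and 0.270).

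The count of 3 called synthetases changed when a single array was left out. Here and below, the share of all genes called in each such refit is not given. Whether the calls over all genes moved likewise is therefore not shown. Without parotid replicate 1 it was 12, with 2 higher and 10 lower in tumour. Without parotid replicate 2 it was 11, with 10 higher and 1 lower in tumour. Without either untreated tumour, or without either day 14 array, which here enter only through the pooled spread, it was 1. Parotid replicate 2 lay above parotid replicate 1 by a median of 0.49 over the 29 synthetases and 0.21 over all genes. The cytosolic median was −0.43 without parotid replicate 1.

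**Figure D2:**
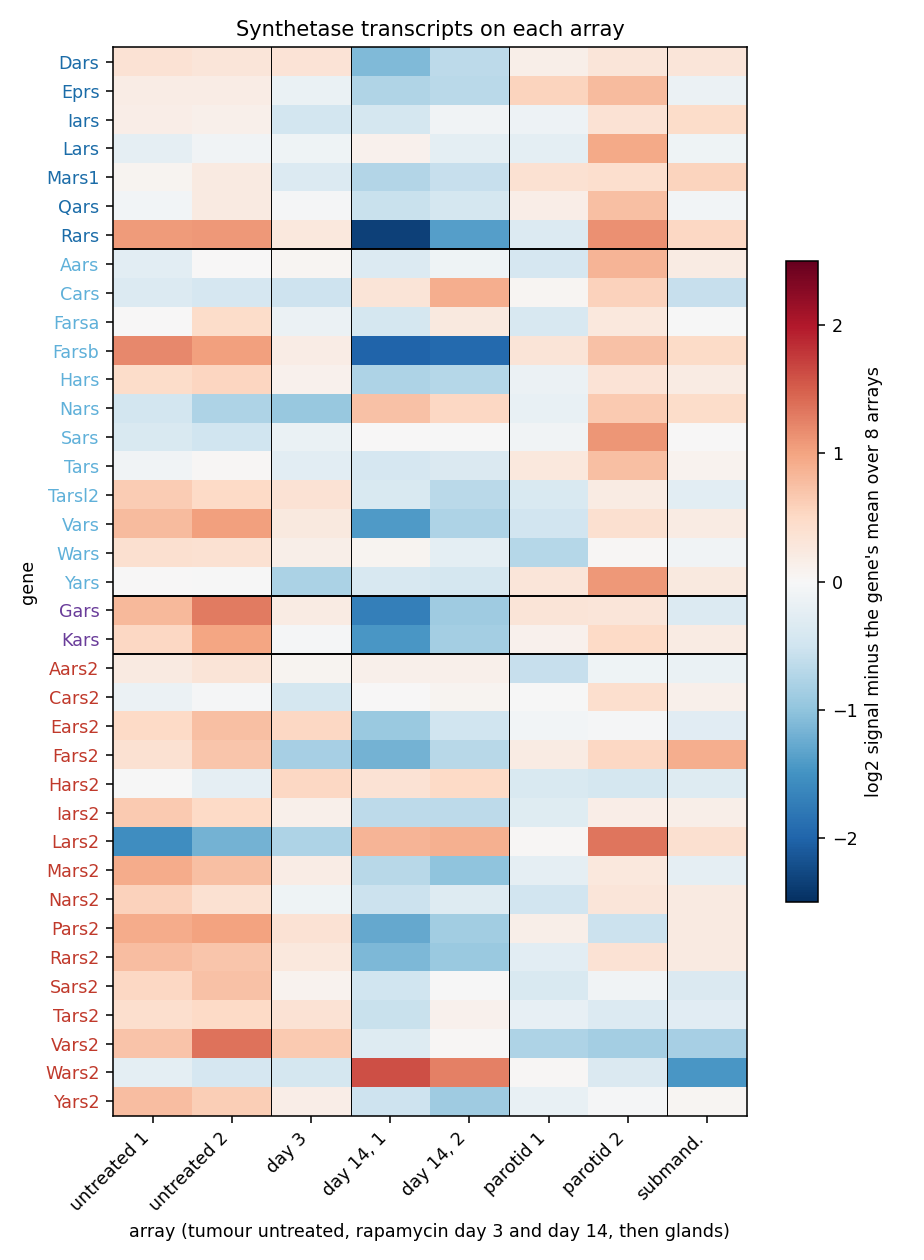
Log2 signal of 37 synthetase genes (rows, named and grouped from top to bottom as cytosolic in the complex, cytosolic outside it, both compartments, mitochondrial) on the 8 arrays (columns), coloured by the difference from the gene's mean over the arrays. Most mitochondrial rows are red in untreated tumour and blue at day 14, Lars2 and Wars2 run the other way, and parotid replicate 2 is redder than parotid replicate 1 in the cytosolic rows.

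Lars2 stood apart from the other mitochondrial enzymes. Its single probe was at 8.95 and 9.32 in untreated tumour, 9.74 at day 3, 11.36 and 11.39 at day 14, 10.53 and 11.84 in parotid gland and 10.90 in submandibular gland. It was the brightest or next brightest of all probes on each array. It was lower in tumour than in parotid gland by a difference of −2.05 ± 0.54 (adjusted p = 0.0276), and higher at day 14 than in untreated tumour by 2.24 ± 0.54 (adjusted p = 0.0168). After quantile normalization the first of these was 0.00 and the other 0.02, since that method gives the brightest probe of every array nearly the same value. Both calls were also lost with the deposited values, and without either untreated tumour or either day 14 array. Whether this probe reads only Lars2 was not tested.

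Day 14 of rapamycin against untreated tumour tested how the enzymes differed after the longer treatment. Of the 29 synthetases, 15 were lower at day 14 and 4 higher, 19 in all, where 47.7% of all genes were called, 23.5% as lower and 24.3% as higher. The falls included those of Farsb, Rars, Gars, Vars and Kars, and the rises were Lars2, Wars2, Nars and Cars. By class, 7 of 18 cytosolic enzymes fell and 2 rose, both enzymes of the 2 compartments fell, and 10 of all 17 mitochondrial enzymes fell while 2 rose. The median difference was −0.45 over the cytosolic and −1.19 over the mitochondrial enzymes, against 0.02 over all genes. Across the other settings these medians ranged between −1.31 and −0.36 for the cytosolic and between −1.29 and −0.75 for the mitochondrial enzymes.

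**Figure D3:**
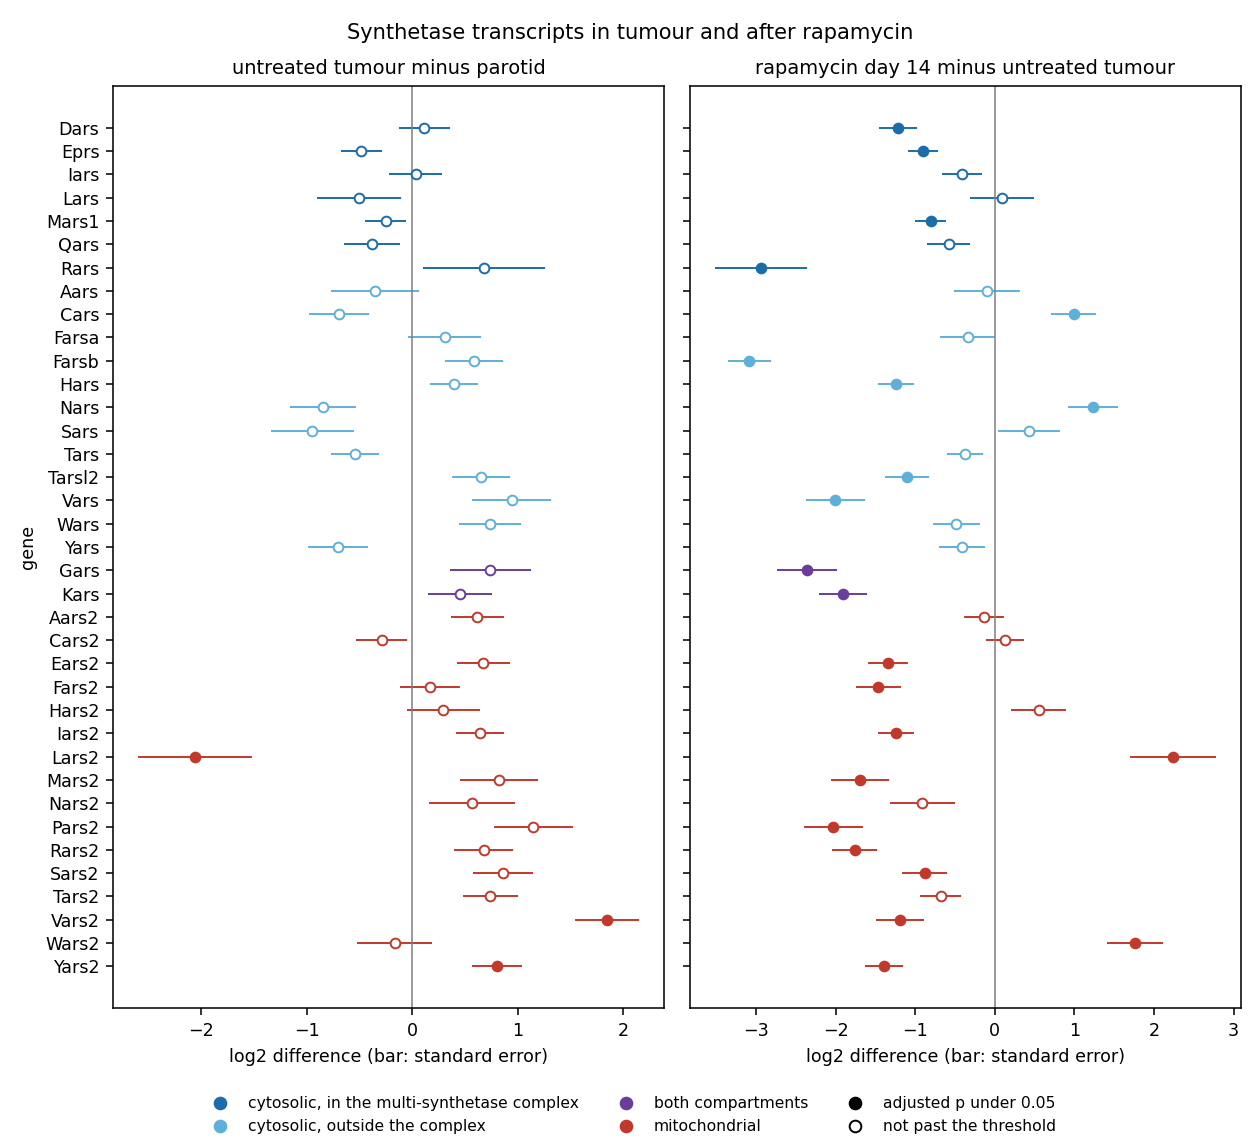
Log2 difference (x axis, with its standard error) of 37 synthetase genes (y axis) for untreated tumour minus parotid gland (left) and for rapamycin day 14 minus untreated tumour (right). Filled points passed an adjusted p of 0.05, and colours give the class. On the left Vars2 and Yars2 (higher) and Lars2 (lower) are the filled points drawn, and on the right 23 of the 37 drawn are, 19 of them lower at day 14.

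Of the 7 enzymes counted here to the multi-synthetase complex, 4 fell. Kars also belongs to this complex, but it is counted under both compartments and described with Gars below. Rars, the arginyl enzyme, was at −0.46 and −0.43 in untreated tumour, −1.25 at day 3, −3.86 and −2.90 at day 14, −1.87 and −0.38 in parotid gland and −1.00 in submandibular gland. The day 14 arrays were the lowest of all, and Rars was well above background on only 1 of them. The difference from untreated tumour was −2.94 ± 0.58 (adjusted p = 0.00817), and without day 14 replicate 1 it no longer passed. Dars, the aspartyl enzyme, differed by −1.21 ± 0.24 (adjusted p = 0.00885), Eprs, which charges both glutamate and proline, by −0.90 ± 0.19 (adjusted p = 0.0107), and Mars1, the methionyl enzyme, by −0.81 ± 0.20 (adjusted p = 0.0171). The leucyl, isoleucyl and glutaminyl enzymes of the complex, Lars, Iars and Qars, differed by 0.09, −0.41 and −0.58 and did not pass.

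Outside the complex, Farsb changed most. Farsb encodes the beta subunit of the cytosolic phenylalanyl enzyme, whose alpha subunit is Farsa. Farsb was at 0.91 and 0.73 in untreated tumour, −0.11 at day 3, −2.30 and −2.23 at day 14, 0.03 and 0.44 in parotid gland and 0.18 in submandibular gland. The day 14 arrays lay below every other array, and the difference from untreated tumour was −3.08 ± 0.27, or 8.47-fold lower, with an adjusted p of 0.000569. Farsb was also lower at day 14 than in parotid gland, by −2.50 ± 0.27 (adjusted p = 0.00788), and than at day 3, by −2.15 ± 0.33 (adjusted p = 0.00832). The reported probe of Farsa differed by only −0.34 ± 0.35 (adjusted p = 0.450). Of its probes above background on all 8 arrays, the most 5′ differed by −1.80 (adjusted p = 0.0041). A kept Farsa probe further 5′, above background on 6 arrays, ran the other way at 0.96. The direction of Farsa toward its 5′ end is therefore not settled here.

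Vars, the cytosolic valyl enzyme, was at 2.14 and 2.38 in untreated tumour, 1.60 at day 3, −0.06 and 0.58 at day 14, 0.87 and 1.76 in parotid gland and 1.57 in submandibular gland. It was lower at day 14 by −2.00 ± 0.37 (adjusted p = 0.00669), and its second probe gave −1.60. Without day 14 replicate 1 this call was lost. Hars, the histidyl enzyme, was lower by −1.24 ± 0.23 (adjusted p = 0.00617), and Tarsl2, a second threonyl enzyme among the genes under other names, by −1.10 ± 0.27 (adjusted p = 0.0180). Nars, the asparaginyl enzyme, ran the other way, at 1.65 and 1.35 in untreated tumour, 1.16 at day 3, 2.84 and 2.63 at day 14, 1.93 and 2.76 in parotid gland and 2.57 in submandibular gland. The day 14 arrays lay above the untreated tumours by 1.24 ± 0.32 (adjusted p = 0.0203) and within or near the range of the glands. Cars, the cysteinyl enzyme, was higher by 0.99 ± 0.28 (adjusted p = 0.0299).

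Gars and Kars, whose products serve both compartments, fell together. Gars was at −0.28 and 0.20 in untreated tumour, −0.89 at day 3, −2.81 and −1.99 at day 14, −0.77 and −0.79 in parotid gland and −1.43 in submandibular gland. Kars was at 4.07 and 4.54 in untreated tumour, 3.52 at day 3, 2.10 and 2.70 at day 14, 3.65 and 4.05 in parotid gland and 3.75 in submandibular gland. For both, every day 14 value lay below every other array. The differences from untreated tumour were −2.36 ± 0.38 for Gars (adjusted p = 0.00405) and −1.90 ± 0.30 for Kars (adjusted p = 0.00374). Both were also lower than in parotid gland, by −1.62 ± 0.38 (adjusted p = 0.0466) and −1.45 ± 0.30 (adjusted p = 0.0341).

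Among the mitochondrial enzymes chosen by name, Mars2, Fars2, Yars2, Iars2 and Sars2, for methionine, phenylalanine, tyrosine, isoleucine and serine, fell by differences between −1.69 and −0.88. Of the 8 mitochondrial enzymes under other names, Pars2 (−2.03 ± 0.37, adjusted p = 0.00630), Rars2 (−1.76 ± 0.28, adjusted p = 0.00379), Ears2 (−1.34 ± 0.25, adjusted p = 0.00661) and Vars2 (−1.19 ± 0.30, adjusted p = 0.0205) fell. The Vars2 call was lost without untreated tumour replicate 2 or either day 14 array. The other 4 and Nars2 differed by −0.91 to 0.55 and did not pass. Dtd1, the deacylase, was at 1.58 and 1.57 in untreated tumour, 0.92 at day 3, 0.07 and −0.31 at day 14, 0.52 and 0.68 in parotid gland and 0.81 in submandibular gland. It was lower at day 14 by −1.70 ± 0.24 (adjusted p = 0.00242) and higher in untreated tumour than in parotid gland by 0.98 ± 0.24 (adjusted p = 0.0209).

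Wars2, the mitochondrial tryptophanyl enzyme, gave opposite answers from its kept probes. The brighter probe was at −2.32 and −2.50 in untreated tumour, −2.53 at day 3, −0.48 and −0.82 at day 14, −2.05 and −2.44 in parotid gland and −3.55 in submandibular gland. On it Wars2 was higher at day 14 by 1.76 ± 0.35 (adjusted p = 0.00864), while the other kept probe fell by 2.00 (adjusted p = 0.00424). The direction of Wars2 is therefore not settled here. These probes were well above background on 7 and 4 of the 8 arrays. Iars2 had 1 probe above background on all 8 arrays, at −1.24, and dimmer ones at −1.30 and 1.41, which were above background on 2 and 5 arrays. The Dars probes above background on all 8 arrays gave −1.21 and −0.26, and its dimmer ones, above background on 2 and 5 arrays, gave 0.73 and 1.12.

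The count of 19 called synthetases became 10 when untreated tumour replicate 1 was left out and 8 when replicate 2 was. It was 6 without day 14 replicate 1 and 12 without day 14 replicate 2. Farsb, Gars and Kars passed in the same direction under every setting run. Each of them has a single probe, so the settings that average a gene's probes or take the outermost one could not change its value. The probes of Farsb and Gars each span over 60 bases of the genome, a kind of probe described below.

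Where a gene had several probes, the probes along it often gave different values. Of the synthetases, 11 had at least 2 cDNA probes above background on all arrays and at least 1000 bases apart on the genome, and in 8 of them the most 5′ probe gave the lower value for day 14 against untreated tumour. Aars, the alanyl enzyme, was at 1.82 and 2.11 on its most 5′ probe in untreated tumour, 1.27 at day 3, −0.45 and −0.31 at day 14, 0.79 and 2.06 in parotid gland and 2.30 in submandibular gland. On its most 3′ probe, which is the reported one, it was at 4.22 and 4.51 in untreated tumour, 4.56 at day 3, 4.15 and 4.40 at day 14, 4.08 and 5.36 in parotid gland and 4.69 in submandibular gland. The day 14 arrays were thus clearly the lowest on the 5′ probe, with a difference of −2.35 (adjusted p = 0.00525), and among the others on the 3′ probe, with a difference of −0.09 (adjusted p = 0.866), both from a fit over all kept probes.

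The same split was measured for Tars, the threonyl enzyme, at −1.95 on the 5′ probe and −0.37 on the 3′ probe, for Iars at −1.85 and −0.41, for Qars at −1.73 and −0.58, and for Cars at −0.59 and 1.03. Dars, Eprs and Lars ran the other way, Eprs at 0.00 on the 5′ probe and −0.90 on the 3′ probe. The median difference between the 5′ and the 3′ probe was −1.16 over the 11 synthetases. It was −0.61 over all 1622 genes with such a pair, of which 76.4% had the lower value on the 5′ probe. For day 3 against untreated tumour the 5′ probe was the lower in 10 of the 11 synthetases and in 70.8% of the 1622 genes, with medians of −0.50 and −0.21. For untreated tumour against parotid gland the medians were 0.42 over the 11 synthetases, of which 5 had the lower value on the 5′ probe, and 0.24 over the 1622 genes.

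On each array the median 5′ signal minus 3′ signal over the 1622 genes was −1.24 and −1.13 in untreated tumour, −1.40 at day 3, −1.80 and −1.74 at day 14, −1.41 and −1.42 in parotid gland and −1.38 in submandibular gland. Over these genes the day 14 arrays had the lowest relative 5′ signal and the untreated tumours the highest. Over the 11 synthetases the same median was −3.02 and −2.94 in untreated tumour, −3.29 at day 3, −2.68 and −3.11 at day 14, −3.29 and −3.30 in parotid gland and −2.54 in submandibular gland, and did not follow that order. Such a median over few genes of unlike levels can hide changes within genes. Gene by gene, the 5′ minus 3′ value was lower at day 14 than in untreated tumour in 8 of the 11, with a median change of −1.16. With the most 3′ probe of each gene, 14 of the 29 synthetases fell at day 14 and 5 rose, and with the most 5′ probe 19 fell and 2 rose, where 47.0% of all genes were called with the most 3′ and 48.1% with the most 5′ probe. The cytosolic median moved to −1.31 with the most 5′ probe, against −0.45 with the most 3′ probe. Most genes with a single probe cannot be checked in this way. Of the 38 synthetases, 11 were read by a probe that spans over 60 bases of the genome, as a probe across a splice junction does, and 10 of these 11 fell at day 14, whereas 10 of the other 27 fell. The 10 were Dars, Eprs, Farsb, Gars, Hars, Iars2, Rars, Rars2, Vars and Vars2, and the other of the 11 was Qars. Over all genes the corresponding shares were 36.0% of 1740 and 22.0% of 14622. Most cytosolic falls described above thus rest on probes of a kind called lower more often over all genes. The part of probe position in the differences was not tested further.

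**Figure D4:**
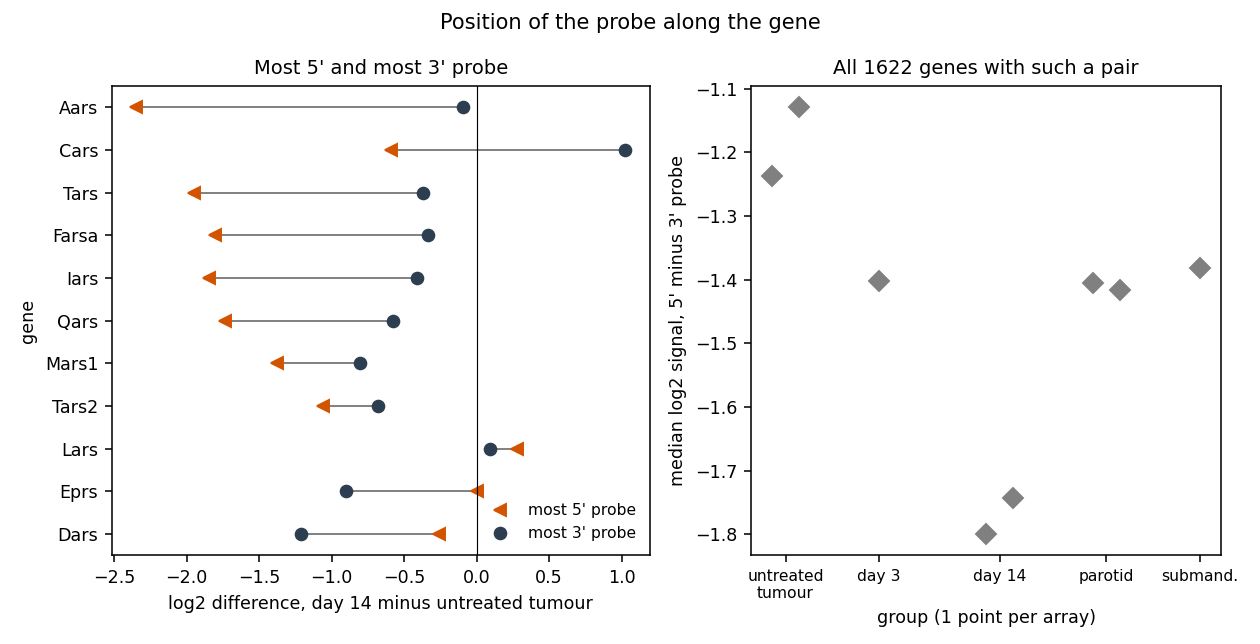
Left, log2 difference for rapamycin day 14 minus untreated tumour (x axis) on the most 5′ probe (triangles) and the most 3′ probe (circles) of the 11 synthetases (y axis) with such a pair. Right, median over 1622 genes of the log2 signal of the 5′ probe minus that of the 3′ probe (y axis) on each array (x axis, by group). The triangles lie left of the circles for 8 of 11 genes, and the day 14 arrays, at −1.80 and −1.74, lie lowest on the right.

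At day 3 none of the 29 synthetases differed from untreated tumour past limma's threshold, and 1 of all 16362 genes (0.00611%) did. At an unadjusted p under 0.05 there were 2, both lower. The share of all genes under that unadjusted threshold is not given here. Day 3 had 1 array, whose spread was taken from the other groups. The difference was negative in 25 of the 29, with a median of −0.45 against 0.06 over all genes, and ran between −1.35 for Fars2 and 0.60 for Lars2. Fars2, the mitochondrial phenylalanyl enzyme, was at 0.91 and 1.22 in untreated tumour, −0.29 at day 3, −0.65 and −0.16 at day 14, 0.73 and 1.05 in parotid gland and 1.44 in submandibular gland. At day 3 it was thus already in the range of the day 14 arrays and below all glands. The class medians at day 3 were −0.34 for the cytosolic and −0.45 for all 17 mitochondrial enzymes.

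Between day 14 and day 3, 5 of the 29 synthetases passed, where 22.8% of all genes did. Nars (1.57 ± 0.39, adjusted p = 0.0335) and Wars2 (1.88 ± 0.43, adjusted p = 0.0275) were higher at day 14. Farsb and Dars (−1.21 ± 0.30, adjusted p = 0.0339) were among the 3 that were lower. Dars was at 1.18 and 1.13 in untreated tumour, 1.15 at day 3, −0.28 and 0.16 at day 14, 0.96 and 1.12 in parotid gland and 1.12 in submandibular gland, so that day 3 lay with the untreated tumours and glands. Of the genes under other names, Rars2 and Ears2 were lower, by −1.29 ± 0.34 (adjusted p = 0.0417) and −1.23 ± 0.30 (adjusted p = 0.0342). The count of 5 was 1 without either untreated tumour, 0 without either day 14 array and 15 without either parotid array.

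Day 14 was set against parotid gland, since both hold acinar transcripts. Of the 29 synthetases, 8 passed, with 7 lower and 1 higher at day 14, where 11.3% of all genes passed, 5.07% as lower and 6.25% as higher. The cytosolic and shared enzymes Farsb, Gars, Kars, Eprs (−1.38 ± 0.19, adjusted p = 0.0135), Dars (−1.10 ± 0.24, adjusted p = 0.0403) and Mars1 (−1.06 ± 0.20, adjusted p = 0.0264) were lower, as was Fars2 among the mitochondrial enzymes (−1.29 ± 0.28, adjusted p = 0.0387). Wars2 was higher on its brighter probe (1.59 ± 0.35, adjusted p = 0.0398). Eprs was at 2.65 and 2.65 in untreated tumour, 2.29 at day 3, 1.71 and 1.79 at day 14, 3.01 and 3.25 in parotid gland and 2.30 in submandibular gland, with day 14 below every other array. The median difference was −0.88 over the 18 cytosolic and −0.16 over the 17 mitochondrial enzymes, against −0.02 over all genes. The count of 8 was 18 without parotid replicate 1, 13 without parotid replicate 2, 2 without either untreated tumour and 0 without either day 14 array. Here too the 5′ probe was the lower in 8 of the 11 synthetases with a pair of probes and in 71.7% of the 1622 genes. Of the 11 synthetases on probes spanning over 60 bases of the genome 4 were lower, Farsb, Gars, Eprs and Dars. Of the other 27, 3 were lower. Over all genes these shares were 11.1% and 4.36%. Skeletal muscle markers, at 721 and 841 on the day 14 arrays against 0.385 and 82.1 in parotid gland, also differed. The part of probe position and of muscle in this comparison was not tested.

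Against the submandibular gland, 1 of 29 synthetases passed in untreated tumour, as a higher value, where 29.4% of all genes passed. Both untreated tumours lay on slide 1 and the submandibular and day 3 arrays on slide 2, so that tissue or day and slide cannot be told apart from these arrays alone. With slide as a fixed block, which parotid gland and day 14 on both slides allow, the count was 0. Over all 17 mitochondrial enzymes the median difference was 0.65, positive in 14, and over the 18 cytosolic enzymes it was 0.09, against 0.05 over all genes. The count of 1 was 7 without either parotid array and 0 without each other replicate. The submandibular gland had 1 array. Between submandibular and parotid gland 3 of the 29 had an unadjusted p under 0.05, all lower in submandibular gland. The share of all genes under that unadjusted threshold is not given here. None of the 29 passed limma's test after adjustment, where 2.35% of all genes passed. Without parotid replicate 1 the count was 3, and without parotid replicate 2 it was 1.

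In the promoter stretches shown above, the element had its first base at 112 bases before and 9 after the start in Aars, 30 before in Gars, 15 before in Tars, 7 after in Iars and 3 after in Yars. In untreated tumour against parotid gland the 5 genes differed by −0.70 to 0.74 with a median of −0.35, and none passed limma's test. The 23 synthetase genes with a window that lacks the element had a median of 0.57. Of these 23, 14 are mitochondrial enzymes, whereas the 5 are cytosolic or serve both compartments, so the medians also differ by class. Only 11 of the 18 cytosolic enzymes had a window. In day 14 against untreated tumour the 5 had a median of −0.41 and the 23 a median of −0.91, and of the 5 only Gars passed. A match of letters says nothing of binding, and the groups of genes were not tested against each other.

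The list of ATF4 amino acid response genes, 24 in all and without synthetases, was described beside these. In untreated tumour 16 of the 24 were lower than in parotid gland, beside 20.3% of all genes, and the other 8 did not pass, with a median of −1.74. Slc6a9, a glycine transporter, differed by −4.73 ± 0.53 (adjusted p = 0.00130), and Chac1, which degrades glutathione, by −4.57 ± 0.73 (adjusted p = 0.00478). Slc7a11, a cystine transporter, was not well above background on either untreated tumour and was at least 9.09-fold lower there (adjusted p = 0.0312), a bound set against the dimmest signal still well above background. At day 14, 9 of the 24 were higher than in untreated tumour, beside 24.3% of all genes, and 2 lower, with a median of 0.83, led by Slc6a9 at 4.80 ± 0.53 (adjusted p = 0.00107) and Chac1 at 3.76 ± 0.73 (adjusted p = 0.00787). Of the 24, 21 had a promoter window and 6 of these (28.6%) held the element. The cytosolic synthetases had medians of −0.30 and −0.45 in these comparisons.

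Scaffold proteins of the multi-synthetase complex were described beside its enzymes. Aimp2 and Eef1e1 were lower at day 14 by −2.32 ± 0.37 (adjusted p = 0.00385) and −2.01 ± 0.21 (adjusted p = 0.000951), and Aimp1 by −0.68 ± 0.19 (adjusted p = 0.0275). Thus 3 of 3 fell, beside 23.5% of all genes and 4 of the 7 enzymes counted to the complex. Kars, which also fell, is not among these 7. In untreated tumour Aimp2 and Eef1e1 were higher than in parotid gland, by 1.40 ± 0.37 (adjusted p = 0.0275) and 1.26 ± 0.21 (adjusted p = 0.00561), whereas Aimp1 differed by −0.21 and did not pass.

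Proteins that act with the mitochondrial enzymes were compared next. Of 26 genes of mitochondrial translation, 11 were higher in untreated tumour than in parotid gland, beside 18.7% of all genes, and the other 15 did not pass, with a median of 0.70. Mrpl37, a ribosomal protein, differed by 1.52 ± 0.42 (adjusted p = 0.0328) and Gfm1, an elongation factor, by 1.49 ± 0.27 (adjusted p = 0.00807). At day 14, 18 of the 26 were lower than in untreated tumour, beside 23.5% of all genes, and the other 8 did not pass, with a median of −1.04, Mrpl37 at −2.49 ± 0.42 (adjusted p = 0.00490) and Gfm1 at −2.47 ± 0.27 (adjusted p = 0.00113). These medians of 0.70 and −1.04 lay near the 0.68 and −1.19 of the mitochondrial synthetases.

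Of 15 genes for tRNA charging aids and tRNA maturation, 4 were higher in untreated tumour than in parotid gland, a share near the 18.7% of all genes. They included Gatb (1.49 ± 0.27, adjusted p = 0.00777), part of the enzyme that makes mitochondrial glutaminyl-tRNA, for which mitochondria use no synthetase of their own, and Mtfmt (1.11 ± 0.31, adjusted p = 0.0333), which formylates mitochondrial methionyl-tRNA. At day 14, 4 of the 15 were lower than in untreated tumour, a share near the 23.5% of all genes, among them Dtd1 and Aarsd1 (−1.44 ± 0.30, adjusted p = 0.0101), which clears wrongly charged alanyl-tRNA. Among 9 measured genes of amino acid sensing, 3 were lower in untreated tumour than in parotid gland, beside 20.3% of all genes, led by Rragd (−1.67 ± 0.40, adjusted p = 0.0201), a GTPase that recruits mTOR to the lysosome, and Eif2ak3 (−1.25 ± 0.22, adjusted p = 0.00691), the kinase PERK. At day 14, 2 of the 9 were higher than in untreated tumour, beside 24.3% of all genes, and 1 was lower, beside 23.5%. The 2 were Rragd, by 1.90 ± 0.40 (adjusted p = 0.0103), and Eif2ak3, by 1.18 ± 0.22 (adjusted p = 0.00676).

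Wars, the cytosolic tryptophanyl enzyme, is known to be induced by interferon, so interferon-induced genes were set beside it. Wars was at 2.41 and 2.40 in untreated tumour, 2.16 at day 3, 2.09 and 1.76 at day 14, 1.30 and 2.04 in parotid gland and 1.93 in submandibular gland. It was above every other array in untreated tumour, by 0.74 ± 0.29 over parotid gland (adjusted p = 0.0888) and with a difference of −0.48 ± 0.29 at day 14 (adjusted p = 0.214), neither past the threshold. Its other kept probe gave 1.89 (adjusted p = 0.00651) and −3.19 (adjusted p = 0.000807) in these comparisons. Of 11 interferon-induced genes, 5 were lower in untreated tumour than in parotid gland, beside 20.3% of all genes, led by Gbp2 (−2.40 ± 0.51, adjusted p = 0.0134) and Irf1 (−2.13 ± 0.49, adjusted p = 0.0179). At day 14, Irf1 (2.25 ± 0.49, adjusted p = 0.0119) and Gbp2 (1.71 ± 0.51, adjusted p = 0.0342) were higher than in untreated tumour, 2 of 11 beside 24.3% of all genes, and the other 9 did not pass.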

How the data were processed

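Per the labels, 300 ng of Trizol-extracted RNA was labelled in 1 colour for each array. The authors scanned each array into Feature Extraction 10.7.3.1, per the file headers (design 014868, probe positions on mm8), which gave a background-subtracted intensity and quality calls for each spot. The deposited table holds log2 values on an unstated normalization, its columns having medians of 5.52 to 5.57 and all the same maximum, 18.965, and served as an alternative. Each of its columns correlated best with its own array (r = 0.971 to 0.980).

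Log2 intensities, less each array's 75th percentile, went into limma 3.58.1 (R 4.3.3) with 5 group means, all 8 arrays and an intensity trend (3 residual degrees of freedom, prior 3.28). Groups with 1 array took their spread from the others. Outlier spots (68 to 846 an array) were left out, and no spot was saturated. Probes had to be well above background on all arrays of 1 group or more, and the brightest kept probe stood for its gene. Probes were named through RefSeq accession (23374), symbol (6733) or synonym (2919), and 8148 kept the name in the files. RefSeq promoter windows gave the sequences. The fit was tested on simulated data.

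Every synthetase could be named, and from each other list the 2 called members that differed most, with Slc7a11 given beside these as a bound, in the comparisons of tumour with parotid and of day 14 with untreated tumour. Members and lists were chosen with earlier results of these data known. Probe positions were examined after the data were seen. Of the synthetase genes, 1 is counted in the classes but not reported here by itself. The number of arrays limits the precision.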

Additional observations from a re-analysis of the deposited data

How the results depend on the processing

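No paired analysis was possible because the labels number both samples only for untreated tumour, and of day 14 and parotid gland only the second, so that the groups share fewer than 2 numbers. Replicate 1 of those groups is a name given here. The counts of called synthetases stayed within 1.5 times the reported ones except as follows. Tumour against parotid gland (3) gave 6 after quantile normalization, with no filter on dim probes and with the mean of a gene's probes, 1 with the deposited log2 values and with only the arrays compared, 9 within slide 1 and 5 with the most 3′ probe. Day 14 against day 3 (5) gave 9 after quantile normalization, 3 with the mean of probes, without the intensity trend and with slide as a fixed block, and 14 with only the arrays compared. Day 14 against parotid gland (8) gave 5 after normexp correction, 3 without the trend and 2 with only the arrays compared. Tumour against submandibular gland (1) gave 2 after normexp correction, 4 with no filter, 3 with the mean of probes, 0 with slide as a fixed block, 8 with only the arrays compared and 3 with the most 5′ probe. Leaving out 1 array gave 1 to 12 for tumour against parotid gland, 6 to 24 for day 14 against untreated tumour, 0 to 15 for day 14 against day 3, 0 to 18 for day 14 against parotid gland, 0 to 7 for tumour against submandibular gland and 0 to 3 between the glands.

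Called differences that turned round were those of Dars with the mean of probes (day 14 against untreated tumour 0.0943, against day 3 0.18, against parotid gland 0.0773) and of Wars2 with the mean of probes (−0.12 against untreated tumour) and the most 5′ probe (−2.00 against untreated tumour, −1.38 against day 3, −1.09 against parotid gland). Others were Iars2 with the most 3′ probe (1.41), and Cars (−0.59) and Eprs (0.000895) with the most 5′ probe, all for day 14 against untreated tumour. The outermost-probe settings were chosen after seeing the data. Of 658 values of called genes under settings that did not leave out a single array, 580 kept direction and call, 68 lost the call and these 10 turned round. The cause was not tested. Settings that left out a single array lost the call in a much larger share of their values, and none turned round there. Low signal limits Rars, which was well above background on 1 of the day 14 arrays. The median of all genes moved by over 0.1 under some scalings, at most to 0.21 with normexp correction at day 14 against day 3.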
